A study of Mus musculus with 2 samples.

Results

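The GTPases of immunity-associated proteins (GIMAPs) were measured in intestinal intraepithelial lymphocytes (IELs) of mice labelled as carrying floxed *Rbpj*, which encodes the DNA-binding partner of cleaved Notch, with or without a CD4-Cre transgene. The family was taken as all probes for gene targets whose RefSeq accession belongs to *Gimap1*, *Gimap3*, *Gimap4*, *Gimap5*, *Gimap6*, *Gimap7*, *Gimap8* or *Gimap9*. These 8 genes of the 20887 named on the arrays were read by 10 probes of 1 spot each, 3 of them for *Gimap4*. On both arrays all 10 probes were well above background, and 0 of their spots were saturated or marked as outliers, so no member was lost to a filter on low values and every signal was measured rather than bounded.

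TCRαβ+CD8αα+ IELs were sorted from the small intestine of C57BL/6 mice of 8–12 wk, males and females pooled. The Control group carried floxed *Rbpj* (Rbpjf/f), and the RFF4 group carried the same floxed alleles with CD4-Cre, a transgene that deletes in T cells from the thymic stage at which CD4 is expressed. The labels name no Cre for Control, whereas the results of the study describe controls with unfloxed *Rbpj* and the CD4-Cre transgene. Cells negative for CD4, TCRγδ and CD8β were sorted after depletion of CD4+ and TCRγδ+ cells, and RNA from several isolations was pooled. A single Agilent array of 1 color was run for each group, so no spread between mice, no p-value and no replicate check can be given for any value below.

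GIMAPs are small GTP-binding proteins that vertebrate lymphocytes carry, and their genes lie side by side in a single cluster. They are known for the survival of resting T cells. Animals that lack *Gimap5* lose peripheral T cells, and *Gimap1* is needed to keep mature T and B cells. Some members are anchored in membranes of lysosomes, the Golgi apparatus or other organelles by a hydrophobic tail, others are free in the cytosol, and the proteins pair with each other when they bind GTP.

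In the RefSeq annotation of assembly GRCm38.p6 the genes lie on chromosome 6 in the order *Gimap8*, *Gimap9*, *Gimap4*, *Gimap6*, *Gimap7*, *Gimap1*, *Gimap5* and *Gimap3*, with the pseudogene *Gm44262* and the noncoding *Gm46958* between the first pair. Since the study targets the factor through which Notch acts, the 250 bases before each start site were searched on both strands for the core TGGGAA of Rbpj, along with TGTGGT of Runx factors, CCGGAA of Ets factors and GGGCGG of Sp and Klf factors. No match overlapped another in these windows. TGGGAA was in 0 of the 9 windows of the 8 genes and in 21.6% of 32851 mouse promoter windows of that length. With the first 50 transcribed bases added it was in the window of *Gimap3* alone, against 25.6% of all windows. TGTGGT was in the windows of *Gimap1*, *Gimap4* and *Gimap7* (14% of all windows), GGGCGG in those of *Gimap7* and *Gimap9* (32.7%) and CCGGAA in none (12.0%). A match of letters is a description and not a site of binding.

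The windows that hold a match are shown, 5′ to 3′ from build GRCm38.p6, because they include the members with the highest and the lowest difference between the arrays, *Gimap7* and *Gimap9*. Capitals mark the matches, which all read on the opposite strand (ACCACA for TGTGGT and CCGCCC for GGGCGG). They begin 145 bases before the start site in *Gimap4*, 79 and 23 bases before it in *Gimap7*, 95 bases before it in *Gimap1* and 54 bases before it in *Gimap9*.
Gimap4, chr6:48684328-48684577, plus strand: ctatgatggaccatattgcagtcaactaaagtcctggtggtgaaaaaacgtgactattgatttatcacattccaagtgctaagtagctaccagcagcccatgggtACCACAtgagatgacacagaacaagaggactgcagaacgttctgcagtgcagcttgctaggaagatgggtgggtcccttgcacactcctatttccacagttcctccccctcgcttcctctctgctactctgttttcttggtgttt
Gimap7, chr6:48718371-48718620, plus strand: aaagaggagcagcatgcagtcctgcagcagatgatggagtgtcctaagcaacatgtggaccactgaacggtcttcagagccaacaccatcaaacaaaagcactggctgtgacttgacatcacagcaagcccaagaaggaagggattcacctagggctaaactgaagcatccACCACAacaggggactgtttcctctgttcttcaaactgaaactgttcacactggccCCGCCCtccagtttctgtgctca
Gimap1, chr6:48738797-48739046, plus strand: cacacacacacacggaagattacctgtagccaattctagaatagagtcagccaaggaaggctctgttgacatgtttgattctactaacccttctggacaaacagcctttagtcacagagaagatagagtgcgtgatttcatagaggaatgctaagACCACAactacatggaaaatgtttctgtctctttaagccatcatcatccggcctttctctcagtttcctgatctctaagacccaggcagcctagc
Gimap9, chr6:48675885-48676134, plus strand: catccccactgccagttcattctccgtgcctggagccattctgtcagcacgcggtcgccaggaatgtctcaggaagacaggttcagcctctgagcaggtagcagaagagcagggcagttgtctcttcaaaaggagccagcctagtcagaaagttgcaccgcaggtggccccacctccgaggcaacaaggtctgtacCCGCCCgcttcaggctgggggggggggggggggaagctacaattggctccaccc

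Of 59305 gene spots, 57.2% were well above background on the Control array and 49.7% on the array labelled RFF4. Signals were background-subtracted by the scanner software, taken to log2 and set relative to the 75th percentile of each array, which was 8.78 for Control and 7.63 for RFF4 before scaling. Probes spotted 10 times gave an SD between spots of 0.094 on the Control array and 0.085 on the other. From spots alone, a log2 difference between arrays thus carries a technical SD of 0.13. It holds no spread between labellings or hybridizations. The target gene itself, *Rbpj*, was at 2.17 on the Control array and 2.48 on the other, a difference of 0.31 (0.81 for its other probe) that turned to −0.78 with spike-in controls set equal. The sources used here do not give the exon that either *Rbpj* probe reads, so this gene does not check the label, and directions below are those of the array labelled RFF4. The Notch targets *Dtx1* and *Heyl* were lower by 12.4-fold and 14-fold (log2 differences of −3.64 and −3.81), and lower under every scaling tried. The size for *Heyl* moved, from −4.90 with spike-in controls set equal to −2.95 with normexp. *Hes1*, another Notch target, was well above background on the array labelled RFF4 alone and, with 75th percentile scaling, at least 2.97-fold higher there. Its log2 difference of 1.57 became 0.99 with normexp and 0.47 with spike-in controls set equal. *Notch1* was at 1.90 with its brightest probe (0.80 with spike-in controls set equal) and 0.20 with its other probe, and *Notch2* at 0.12 and −0.12. *Cd8a* and *Cd3e* of the labelled cells were bright on both arrays. *Cd8b1*, against which the cells were gated, was well above background on the Control array alone, at −3.31. It was 1.66-fold lower on the other, where its signal of −4.05 was not well above background. *Cd4*, also gated against, was well above background on both (1.88 and 2.001). In pooled RNA, fewer cells of a type and less RNA per cell cannot be told apart.

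The GIMAP genes held nearly the same place on both arrays. Their differences, RFF4 minus Control, ran from −0.05 for *Gimap9* to 0.24 for *Gimap7* in log2 units. Their median was 0.036 and the SD over the 8 genes 0.11. None of the 8 passed 2-fold, a size by which 5.21% of the 13519 genes with a difference were lower and 12.1% were higher. The median over all those genes was −0.027. With 75th percentile scaling all 8 members lay within 2 technical SDs of 0, and 5 within 1. With quantile normalization they ran more widely, from −0.38 to 0.29. The direction of so small a family median rests on the scaling, being above 0 with the 75th percentile and below 0 with median scaling (−0.12), quantile normalization (−0.048), cyclic loess (−0.057), normexp background correction (−0.17) and spike-in controls set equal (−1.06), so no direction is given for the family.

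Before any scaling, every probe of the family was dimmer on the array labelled RFF4, with RFF4 to Control ratios from 0.433 to 0.567, or log2 differences from −1.21 to −0.82. The 75th percentile of all gene probes was itself lower there by a log2 difference of −1.16, which lies inside this range. The scanner software put the error of each member's signal at 10%, which amounts to 0.20 for a log2 difference.

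**Figure D1:**
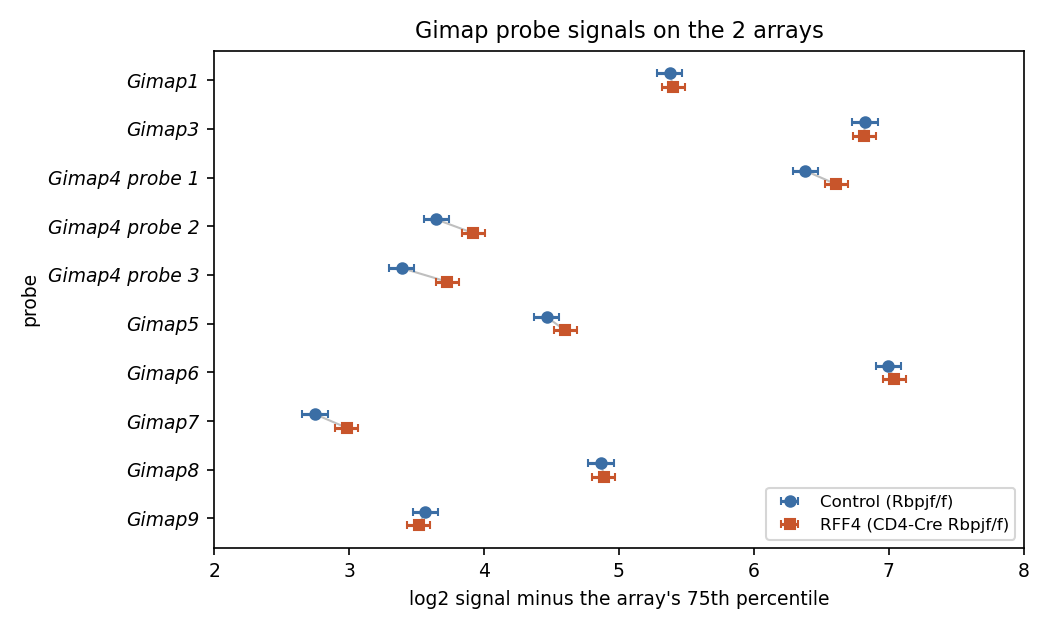
Log2 signal of each of the 10 Gimap probes, relative to the 75th percentile of its array, on the Control array (circles) and the array labelled RFF4 (squares), 1 spot each. Bars are the SD between repeated spots, 0.094 and 0.085, and the bars of a row overlap except for the 3 probes of *Gimap4* and that of *Gimap7*. The height of different probes does not compare the abundance of their transcripts.

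Among the members anchored in membranes, *Gimap5*, which keeps resting lymphocytes and blood progenitors alive, had a signal of 9723 on the Control array and 4795 on the array labelled RFF4. Relative to the 75th percentile these are log2 signals of 4.46 and 4.601, a difference of 0.14, close to the technical SD. *Gimap3*, the closest relative of *Gimap5* and a gene whose variants alter the sorting of mitochondrial DNA in mouse leukocytes, had signals of 49891 and 22283. On the scaled log2 axis it was at 6.82 on both arrays, a difference of −0.01. *Gimap1*, a protein of the Golgi apparatus needed by mature T and B cells, had signals of 18295 and 8360, which scale to 5.38 and 5.40, 0.03 apart. With 75th percentile scaling none of these membrane members moved by more than 0.14, whereas *Gimap3* was at −0.38 with quantile normalization and *Gimap1* at −0.17 with normexp, and scaled to the spike-in controls the 3 lay from −1.10 to −0.96.

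Among the soluble members, *Gimap6*, which binds the autophagy protein Gabarapl2, had a signal of 56256 on the Control array and 25996 on the other. Scaled, its log2 signal was 6.996 and 7.04, a difference of 0.04. *Gimap8*, whose protein holds repeated GTP-binding domains, had signals of 12869 and 5853, or 4.87 and 4.89 when scaled, 0.02 apart. Both differences are smaller than the spread between spots.

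*Gimap7*, a cytosolic member whose GTP hydrolysis needs pairing of its molecules, had the lowest signals of the probes, 2958 and 1563, still 95.7 and 43.2 times the local background. Its scaled log2 signal was 2.75 on the Control array and 2.98 on the array labelled RFF4, so that it was 1.18-fold higher on the latter, the highest of the 8 members but within 2 technical SDs. *Gimap9*, a less studied member, had signals of 5220 and 2259. It was at 3.57 and 3.51 on the scaled log2 axis and had the lowest difference, −0.05.

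*Gimap4*, which is known to speed the death of T cells that have received a death signal, was the member read by several probes. Its brightest probe had signals of 36720 and 19320, at 6.38 and 6.61 after scaling, a log2 difference of 0.23 or 1.17-fold. The second probe, for the same transcript, rose from 3.65 to 3.92, a difference of 0.27. The third, for another RefSeq transcript of the gene, rose from 3.39 to 3.73, a difference of 0.34 or 1.26-fold. All 3 probes were thus higher on the array labelled RFF4 with 75th percentile scaling, with a mean of 0.28 ± 0.05 (SD, n = 3 probes of the same pools, not replicates). The highest 2 of the differences exceed 2 technical SDs between spots, but none of the 3 exceeds 2 times the scanner error of 0.20, and neither error holds the spread between pools. The 3 values lay 0.11 apart, where the median span was 0.34 over 459 genes with 3 probes well above background on both arrays. The sign of the brightest probe was not kept, at −0.07 with quantile normalization, −0.0032 with normexp background correction and −0.86 with spike-in controls set equal.

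Ordered by their differences the members ran *Gimap9*, *Gimap3*, *Gimap8*, *Gimap1*, *Gimap6*, *Gimap5*, *Gimap4* and *Gimap7*. The widest gap between neighbors in that order was 0.094, less than the technical SD of such a gap, and the ends of the order were 0.29 apart, which is less than 2 such SDs (0.18 each). Other processing widened the order and changed its lower end. With quantile normalization it ran from −0.38 (*Gimap6*) to 0.29, and with cyclic loess from −0.24 (*Gimap3*) to 0.29. The members cannot be ranked with 1 spot per probe on each array.

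Against genes with probes as bright, the family stood in the middle. The 3472 other genes whose mean log2 signal lay between those of the dimmest and the brightest member had a median difference of −0.030, an SD of 0.57 and quartiles of −0.32 and 0.26. All 8 members lay between these quartiles. By the distance between pairs of scaled signals over the 2 arrays, the genes most like the family's median pair (5.12 and 5.15) were *Tspan13* (0.0022 log2 units away), *Use1* (0.016), *Pptc7* (0.023), *Fdps* (0.028) and *Polr2g* (0.030), a likeness of probe signals over 2 arrays that carries no relation between the genes.

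**Figure D2:**
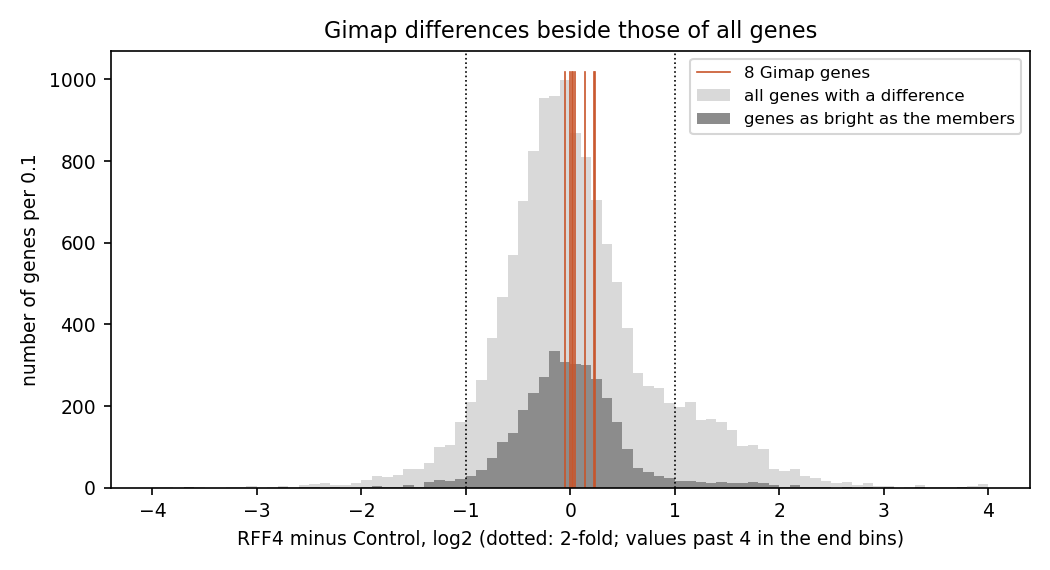
Number of genes, in bins of 0.1, by their log2 difference RFF4 minus Control, for all 13519 genes with a difference (light) and the 3472 other genes as bright as the Gimap genes (dark); dotted lines mark 2-fold. The vertical lines of the 8 Gimap genes stand between −0.05 and 0.24, near the middle of both distributions.

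The genes beside the cluster varied more. Of the 5 genes next to it on each side (predicted genes and microRNAs left out), 9 had a difference, with a median of 1.33 and a range from −0.25 to 2.59. The median was 0.24 with spike-in controls set equal, and the highest value was 1.55 with normexp. On the array labelled RFF4, 5 of the 9 were higher by over 2-fold, against 12.1% of all genes, but only *Rarres2* when scaled to the spike-in controls. That scaling put 1.46% of all genes past 2-fold higher and 55.7% past 2-fold lower, 3 of the 9 among the latter. Next to *Gimap3* lie *Tmem176b* and *Tmem176a*, membrane proteins of dendritic cells and some lymphocytes, which were higher by 1.33 and 1.41 on the log2 scale. *Aoc1*, the diamine oxidase of the intestinal epithelium, was higher by 1.45 (from 3.03 to 4.47), *Doxl2* by 1.66 and *Doxl1* was at −0.08. Beyond *Gimap8* lie *AI854703* (−0.25), *Zfp775* (not well above background on either array), *Repin1* (−0.01), *Rarres2*, which encodes the chemoattractant chemerin (2.59), and *Lrrc61* (0.26). The probes of *Rarres2* (−4.36 on the Control array and −1.77 on the other), *Doxl2* (−3.72 and −2.06) and *Tmem176a* (−2.21 and −0.80) were dimmer than any *Gimap* probe.

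Markers of epithelial cells and of macrophages and dendritic cells also differed between the arrays. All 14 epithelial markers were higher (11 with spike-in controls set equal), 12 by more than 2-fold against 12.1% of all genes (0 with spike-in controls set equal, against 1.46%), with a median of 1.59 (0.49), and their summed log2 level went from 7.98 to 9.58. All 11 macrophage and dendritic cell markers were higher (9 with spike-in controls set equal and 10 with quantile normalization or normexp), 10 by more than 2-fold (7 scaled to the spike-in controls) against the same shares, with a median of 2.41 (1.32). Their summed log2 level, to which *Itgax* added most (5.73 and 5.92), went from 6.02 to 7.24. Scaling to the spike-in controls lowers the change of each of these sums by 1.09. The part of these cells in the flanking genes was not tested.

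**Figure D3:**
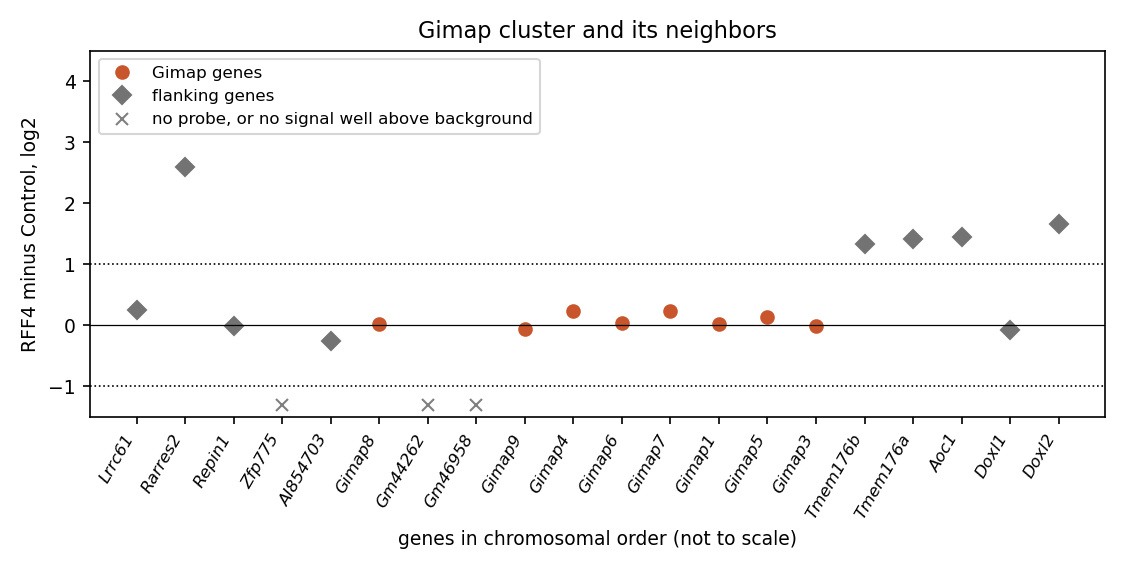
Log2 difference RFF4 minus Control of the 8 Gimap genes (circles) and the 10 genes beside them (diamonds) in their order on chromosome 6, not to scale; crosses at the bottom mark genes with no probe or no signal well above background and dotted lines mark 2-fold. The Gimap genes stay between −0.05 and 0.24, while *Rarres2*, *Tmem176b*, *Tmem176a*, *Aoc1* and *Doxl2* lie above the upper line, where *Rarres2* alone stays when scaled to the spike-in controls.

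*Gimap* transcripts are found in T cells, B cells, NK cells and endothelium, so the markers of each were set beside the family. Of 12 genes shared by T cells, 7 were higher and 5 lower with a median of 0.21 (below 0 with quantile normalization, cyclic loess, normexp and spike-in controls set equal) and a range from −0.47 (*Ptprc*, the phosphatase CD45) to 2.21 (*Cd2*, an adhesion receptor). *Cd3d*, a subunit of the T cell receptor complex, was the next highest at 0.52. The family median lay −0.17 from the median of these genes, and that gap did not move under scaling by a constant. It became 0.19 with quantile normalization and 0.018 with cyclic loess. Only *Cd2* of the 12 was past 2-fold with 75th percentile scaling.

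Markers of the other cell types that carry *Gimap* transcripts were in part at background. Of 8 endothelial markers, *Cdh5*, *Tek*, *Tie1*, *Emcn* and *Esam* were not well above background on either array, *Pecam1* was at −1.05, *Egfl7* at 0.62 and *Kdr* at 1.32, and the summed log2 level went from 2.67 to 3.86. Of 7 B and plasma cell markers, *Cd79a* and *Pax5* were among those not well above background on either array, *Cd79b* was at −0.27, *Sdc1* at 1.01, *Jchain* at 1.66 and *Ms4a1* at 1.78, and the summed log2 level went from 4.92 to 6.05. Each sum rested mostly on 1 gene, *Kdr* (2.47 and 3.79) for endothelium and *Jchain* (4.11 and 5.78) for B and plasma cells. Scaling to the spike-in controls lowers the change of these sums, and of those below, by 1.09. Scaled to the spike-in controls, *Egfl7* turned to −0.47 and *Sdc1* to −0.09, while *Kdr*, *Jchain* and *Ms4a1* stayed above 0.

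Of 3 NK cell markers, *Ncr1*, the receptor that defines these cells, was not well above background on either array, *Klrb1c* was at −1.90 and *Eomes* at 0.31, and the summed log2 level went from 1.66 to 0.12. Of 4 markers of CD4+ and CD8αβ+ T cells, *Cd40lg* was not well above background on either array, *Cd4* was at 0.12 and *Foxp3* at 1.19, and the summed log2 level went from 1.93 to 2.06. Scaled to the spike-in controls, *Eomes* turned to −0.78 and *Cd4* to −0.97. The part of these cells in the *Gimap* signals was not tested.

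Genes of resting and recirculating T cells, among which the *Gimap* genes are often counted, did not stay as close together as the family did. Of 12 such genes, 9 were higher and 3 lower, with a median of 0.76 (−0.34 with spike-in controls set equal) and an SD of 0.84 (0.79 over all genes). Past 2-fold, 4 were higher (12.1% of all genes) and 0 lower (5.21%), which became 0 higher (1.46%) and 3 lower (55.7%) when scaled to the spike-in controls. The summed log2 level of the 12, to which the bright probe of *Foxo1* added most (6.11 and 5.50), went from 7.13 to 6.95. *Il7r*, the receptor for the survival cytokine interleukin 7, was higher by 1.89 (from −2.08 to −0.18). *Foxo1*, a transcription factor that drives *Il7r* in resting T cells, was at −0.61 and *Foxp1* at −0.35.

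Other GTPases of immune cells, those induced by interferon, were set beside the family as proteins of related function. Of 13 genes, 11 were lower and 2 higher, with a median of −0.43 (−0.027 over all genes), below 0 under every scaling tried. Their SD was 0.73, against 0.11 for the *Gimap* genes and 0.79 over all genes. *Gbp8* (−1.27) and *Gbp9* (−0.83) were lowest and *Irgm1* was at 0.01. *Gbp6* was at 1.78 with its brightest probe but at −0.66 with its other probe, so that its direction is unsettled. Without *Gbp6*, a choice made after seeing the data, 11 of the remaining 12 were lower and 1 higher, with a median of −0.44 and an SD of 0.39. The guanylate-binding proteins are near-identical in places, as are *Gimap3* and *Gimap5* among the members, and whether their probes tell relatives apart was not tested, since probe sequences were not used here.

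Of 18 genes for partners of the GIMAP proteins, 0 were past 2-fold in either direction, where 5.21% of all genes were lower and 12.1% higher. Scaled to the spike-in controls, 13 of the 18 were past 2-fold lower, where 55.7% of all genes were. Of 9 autophagy genes tied to Gimap6, 7 were lower and 2 higher with a median of −0.19, below 0 under every scaling tried. *Gabarapl2*, the direct partner, was at −0.0005, its relatives *Gabarap* and *Gabarapl1* at 0.23 and −0.25, and the related *Map1lc3a* and *Map1lc3b* at −0.49 and −0.41. The adaptor *Sqstm1* (−0.08) and the genes of autophagosome formation *Atg5* (0.06), *Atg7* (−0.19, and 0.02 with its other probe) and *Becn1* (−0.26) completed this list.

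Of the 6 BCL2 family genes, which control the mitochondrial death pathway and to which Gimap3, Gimap4 and Gimap5 have been tied, 4 were higher and 2 lower with a median of 0.22 (−0.87 with spike-in controls set equal). *Bcl2*, a survival factor, fell by 0.62 on the log2 scale, or 1.53-fold, and the survival factor *Bcl2l1* was at 0.29. The death-promoting *Bad*, *Bak1* and *Bax* were at 0.59, 0.44 and 0.16 and *Bcl2l11* at −0.27. The kinase gene *Gsk3b*, which Gimap5 restrains, was at −0.24 (its 3 probes ran from −0.72 to −0.24), *Gsk3a* at −0.07 and *Ctnnb1*, which encodes the GSK3 substrate β-catenin, at 0.07.

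**Figure D4:**
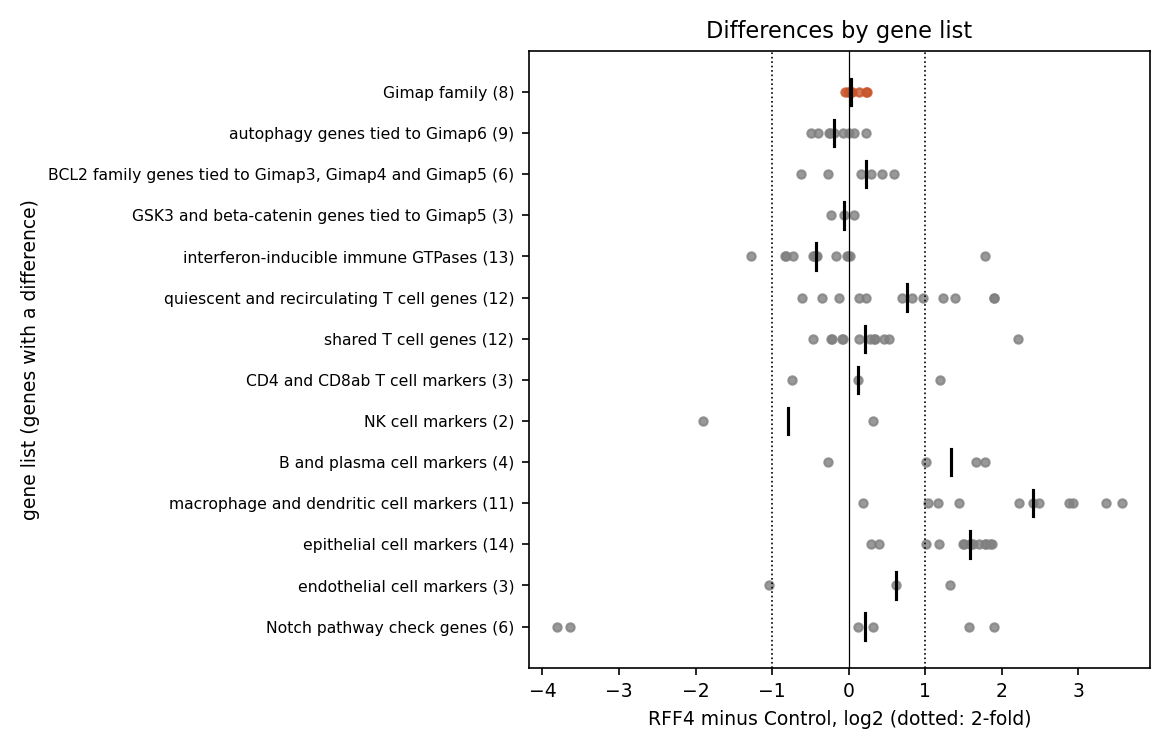
Log2 difference RFF4 minus Control of each gene with a difference, 1 row per gene list, with the number of such genes in parentheses; vertical bars are medians and dotted lines mark 2-fold. The 8 Gimap genes, in the top row, span 0.29, and the macrophage and dendritic cell and the epithelial markers lie to the right with medians of 2.41 and 1.59, or 1.32 and 0.49 when scaled to the spike-in controls.

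A single choice moved members past 2-fold, the scaling constant. Once signals were scaled to the spike-in controls, 5 of the 8 members (62.5%) passed 2-fold lower, where 55.7% of all genes did, since that choice lowers every difference by 1.09 relative to the 75th percentile. Median scaling lowers every difference by 0.15. The 8 spike-in controls differed by −0.063 before scaling, and 150 ng of RNA was labelled for each array. Whether the amount of these controls followed cell number or RNA mass is not given in the sources used here.

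Quantile normalization lowered the members with the brightest probes most, to −0.38 for both *Gimap6* and *Gimap3*, and widened the SD over the members to 0.23. *Gimap7* stayed above 0, from 0.04 to 0.29, under all alternatives except the spike-in controls, which put it at −0.86. *Gimap9* and *Gimap3* were below 0 under all 10 alternatives.

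**Figure D5:**
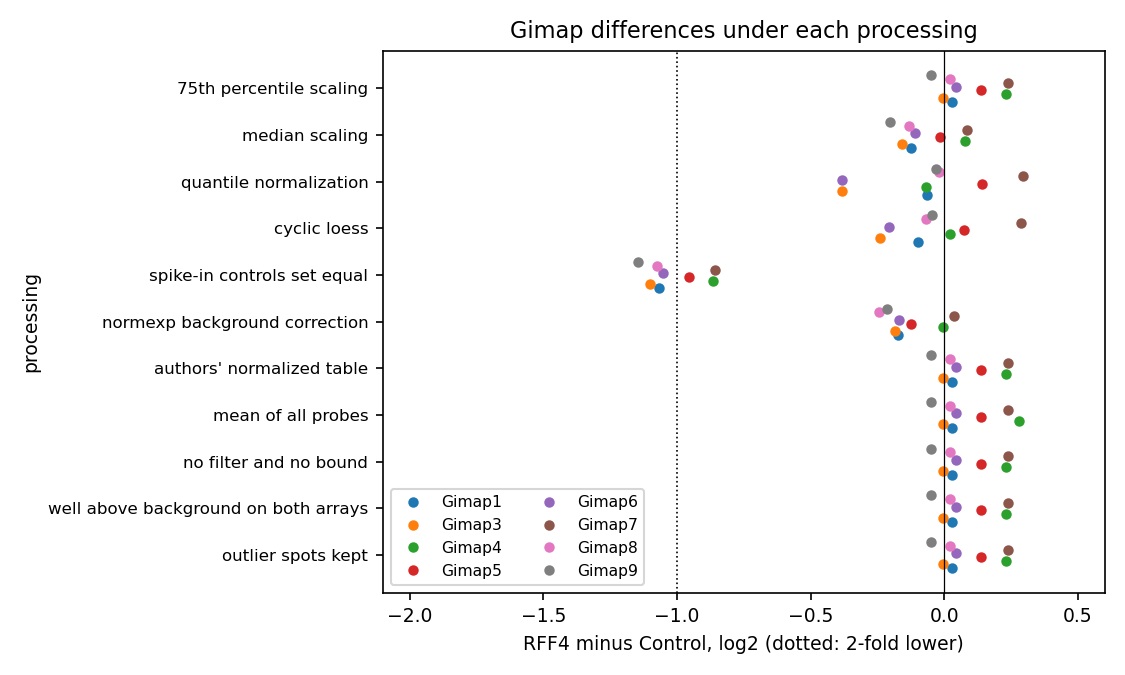
Log2 difference RFF4 minus Control of each Gimap gene under 75th percentile scaling and each of 10 alternatives, 1 row each; the dotted line marks 2-fold lower. In 9 of the alternatives the members stay between −0.38 and 0.29, and scaled to the spike-in controls they lie between −1.15 and −0.86.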

How the data were processed

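Per the labels, the authors sorted IELs from each genotype, pooled RNA over several isolations and labelled 150 ng with Cy3 for 1 Agilent array each. The intensity values were deposited as the authors' scanner software, Agilent Feature Extraction 10.7.1.1, gave them, background-subtracted on a linear scale and not normalized between arrays. A table deposited beside them holds log2 values that the authors normalized with GeneSpring (settings not given in the sources used here) and that are centered per probe. Its difference between the arrays equals that of the scanner signals plus 1.16, which is the shift of the 75th percentile.

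Control and outlier spots were left out, log2 signals of spots of a probe were averaged, and from each value the 75th percentile of its array, taken over the 55679 probes for genes, was subtracted. Probes (27509) were named through RefSeq accessions of GRCm38.p6, not through synonyms, since *Gimap5* is also an old name of *Gimap3*. The brightest probe stood for a gene. A gene was kept if well above background (at least 50% of spots) on 1 array. On the dimmer array, a signal not well above background was raised to the lowest that was, if it lay under it, which gives a bound. Otherwise it kept its value. No test was run, and 1 array per group limits the precision.

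Members, lists and the rule for naming genes (all members and partners, the 2 lowest and 2 highest of other lists, markers at background, flanking genes and the 5 nearest patterns) were chosen with earlier results of these data known. Alternatives changed the scaling (median, quantile, cyclic loess, spike-in controls), the background (normexp, offset 50), the table, the probe, the filter or the outliers. The steps were tested on simulated data. Python 3.11.15, numpy 2.4.6, pandas 2.3.3, matplotlib 3.10.9, R 4.3.3 and limma 3.58.1 were used. Protein and probe sequences were not used here. Some genes of the lists are counted but not reported here by name.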

Additional observations from a re-analysis of the deposited data

How the results depend on the processing

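The median difference over the 8 members, 0.036, was −0.12 with median scaling, −0.17 with normexp background correction and −1.06 scaled to the spike-in controls, and stayed within the technical SD (0.13) of its value under the other 7 alternatives. The number of members more than 2-fold lower, 0, became 5 scaled to the spike-in controls and stayed 0 under the others, and the number more than 2-fold higher was 0 under all. Median scaling and the spike-in controls shift every gene by a constant, which is their construction. For the rest the cause was not tested. Of 80 recomputed member differences, 30 moved by more than the technical SD, all 30 downward. No paired analysis was possible because each group has 1 array, and no replicate could be left out. The members' signals were at least 43.2 times the local background. The normexp alternative moved all 8 by more than the technical SD, but it included an offset of 50 as well as the background correction. The part of the offset alone was not tested, so these moves do not show a dependence on background. The single array per group gives no spread between samples.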
